A study of Homo sapiens with 2 samples.

Results

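The mitochondrial ribosomal protein genes are the nuclear genes that encode the protein subunits of the ribosome inside mitochondria. They were taken as the protein-coding genes whose symbol is MRPL or MRPS, a number and at most 1 letter from A to C. The rule found 78 genes among 58302 rows of the table, 49 with an MRPL symbol (large subunit) and 29 with an MRPS symbol (small subunit), and used no measured value. They were measured by RNA-seq in HL60-EIF2S3 cells, a line made from HL60, an established human promyelocytic leukemia line, with a Retro-X Tet-Off construct for EIF2S3, the gamma subunit of translation initiation factor eIF2. Both conditions carried the construct. The cells labelled DOX(-) were untreated, which leaves the construct on by design, and the cells labelled DOX(+) received doxycycline, which shuts it down. The sources used here do not give the doxycycline dose and duration or whether the line was a single clone, and no library of cells without the construct was analysed here. Exposure to doxycycline and the state of the construct differed together between the conditions and cannot be told apart. There was 1 library per condition, so every difference below compares these 2 libraries, has no replicate check and carries no p-value.

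The mitochondrial ribosome translates only the few proteins that the mitochondrial genome encodes, which are core subunits of the respiratory chain complexes and of ATP synthase. Its RNA components are transcribed from mitochondrial DNA, while all of its protein subunits are made in the cytosol and imported. Some subunits have bacterial counterparts, and others were added in the mitochondrial lineage. Doxycycline belongs to the tetracyclines, which bind the small subunit of bacterial ribosomes and are also known to inhibit mitochondrial translation.

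The values are FPKM, fragments scaled to transcript length and to the library total, so levels can be compared between genes of different length. Where 2 values are given for a gene, the first is from the library labelled DOX(-) and the second from that labelled DOX(+). The steps between FPKM values gave 16577644 fragments for the library labelled DOX(-) and 18521267 for the library labelled DOX(+). The transgene target EIF2S3 was at 132.9 and 126.2 FPKM, a ratio of 1.05. Its 95% counting interval on the shortest annotated transcript, which gives the widest interval, ran from 0.927 to 1.20. On that transcript the higher level that the label DOX(-) implies was not seen beyond counting error. No interval on a longer transcript is given for EIF2S3, so whether the difference exceeds counting error is not settled here. Whether the FPKM of EIF2S3 include transcripts of the construct is not given in the sources used here, so the ratio may not check the labels, and the libraries are called by their labels throughout. The granulocyte precursor genes ELANE (396.4 and 299.4 FPKM) and CTSG (689.2 and 569.8 FPKM), which encode granule proteases, were high in both libraries, and 7 of 8 promyelocyte markers reached 1 FPKM. The exception was MPO, the myeloperoxidase gene and a defining marker, at 0.274 and 0.469 FPKM. None of 6 monocyte markers, 1 of 6 lymphoid markers (CD79A, 1.66 and 0.709 FPKM) and 1 of 5 erythroid markers (HBA1, 1.33 and 3.36 FPKM) reached 1 FPKM in either library, and FCGR3A, CD3E, CD3D, MS4A1 and HBB among them were listed at 0 in both. Transcripts of the mitochondrial genome held 22.5% of all FPKM in the library labelled DOX(-) and 27.7% in the library labelled DOX(+), and their part in the ratios of other genes was not tested beyond the rescaling given further on. These are bulk samples, in which fewer cells with a transcript and less of it per cell cannot be told apart.

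All 78 mitochondrial ribosomal protein genes were at 1 FPKM or more in both libraries. The median gene was at 11.9 and 11.5 FPKM. Their FPKM summed to 1582 and 1540, which is 0.561% and 0.535% of all FPKM. Most genes lay in a middle band, with 58 and 60 of them between 5 and 50 FPKM in the 2 libraries. The range was nevertheless wide, since the highest gene stood 133.6-fold above the lowest in the library labelled DOX(-) and 77.5-fold above it in the library labelled DOX(+). The SD of the log2 levels among the genes was 1.45 and 1.36, beside 1.41 and 1.38 for the 7673 protein-coding genes in the same range of mean level. That range was set by the 78 genes themselves, which bounds the spread of the genes compared. The 9283 protein-coding genes with at least 1 FPKM in either library had an SD of 1.73 and 1.70 over values above 0.

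The same 6 genes led the order in both libraries and held 32.6% and 30.4% of the summed FPKM. MRPL12, which forms the flexible stalk of the large subunit where translation factors dock, was first, at 172.8 and 151.6 FPKM. MRPS10, a conserved protein of the small subunit head, followed at 97.7 and 93.6 FPKM. MRPL14, on the face of the large subunit that meets the small subunit, was at 74.3 and 65.5 FPKM, and MRPL18, a protein of the central protuberance, was at 64.8 and 59.4 FPKM. The levels of these genes stepped down from the first to the fourth, in the same order in both libraries. MRPS26, a subunit without a bacterial counterpart, was at 53.0 and 49.2 FPKM, and MRPS18A was at 52.7 and 48.9 FPKM, so the fifth and sixth genes were nearly level. MRPS18A is placed in the large subunit by structures despite its symbol.

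At the other end, MRPL55 was lowest by the mean of the libraries, at 1.29 and 2.38 FPKM. MRPS33 was at 2.02 and 1.96 FPKM, MRPL46 at 1.97 and 2.43, MRPL49 at 2.38 and 2.52, MRPS18C at 2.35 and 2.62, and MRPS11 at 2.49 and 3.01. These 6 genes lay within a narrow band and exchanged places between the libraries. The subunit proteins are present once per ribosome, with the stalk protein MRPL12 as a known exception, and their transcripts spanned this wide range of levels. The annotation bears on them, since 70 of the 78 genes have several annotated transcripts, with a median of 5 and a maximum of 34 for MRPL55, and FPKM depends on which transcript length a gene is given.

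**Figure D1:**
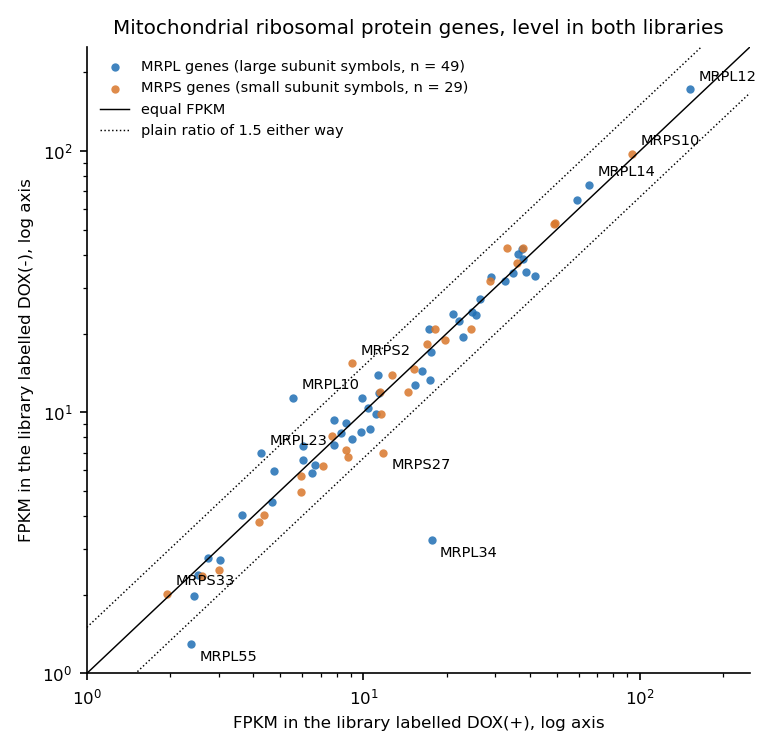
Level of each of the 78 mitochondrial ribosomal protein genes in the library labelled DOX(+) (x axis, FPKM, log scale) and in the library labelled DOX(-) (y axis, FPKM, log scale), with 1 point per gene, blue for MRPL and orange for MRPS symbols. The solid line marks equal FPKM and the dotted lines a plain ratio of 1.5 in either direction. Most points lie close to the line of equal FPKM from 1.29 to 172.8 FPKM, and MRPL34 (3.24 and 17.7 FPKM) lies farthest from it.

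Levels of the 78 genes were alike in the libraries, with a Pearson correlation of 0.963 and a Spearman correlation of 0.951 between log2 levels. The 7668 protein-coding genes of the same level range that were above 0 in both libraries gave 0.961 and 0.958. These are correlations across genes within the same pair of libraries, and genes are not independent replicates.

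Each gene's difference was the log2(FPKM + 1) value for DOX(-) less that for DOX(+), a scale that understates the differences of low genes. The median over the 78 genes was -0.02, with 38 genes above 0 (48.7%) and 40 below, where 46.6% of all 11525 genes tested and 45.9% of protein-coding genes were above 0. The 9283 protein-coding genes with at least 1 FPKM in either library had the same median of -0.02. At a rule of size of 1.5-fold, 3 mitochondrial ribosomal protein genes were higher and 2 were lower in the library labelled DOX(-), and 73 lay within it. Among all 11525 genes tested, 3.11% were higher and 4.06% lower by that rule, and among protein-coding genes 2.36% were higher and 2.98% lower. The 5 of 78 genes amount to 6.41%, near the 7.17% of all genes and the 5.34% of protein-coding genes past 1.5-fold in either direction, so the count is no result about these genes. The middle 50% of the 78 ratios spanned 0.287 on the log2 scale, against 0.311 for protein-coding genes in the same level range. Their SD was 0.34, against 0.33 for those protein-coding genes. Without MRPL34, left out after its value was seen, it was 0.24, which is not comparable because no gene was left out of the 0.33.

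Counting error was set by exact conditional (Clopper-Pearson) intervals of the plain FPKM ratio, on fragments estimated from the shortest annotated transcript of a gene, which gives the widest interval. Fragments carry no molecular identifiers, so these intervals cover counting error only and leave out the variation between cultures. The interval excluded 1 for 10 of the 78 genes. MRPL10, MRPS2, MRPS35, MRPL12, MRPL14 and MRPL45 had intervals above 1, and MRPL34, MRPL37, MRPL44 and MRPL50 had intervals below 1. This is 12.8% of the genes, beside 16.1% of all genes tested (7.59% above and 8.51% below) and 14.8% of protein-coding genes (6.61% and 8.17%). With the longest annotated transcript, which gives the narrowest interval, 17 genes were above and 18 below 1, or 44.9%, beside 41.5% of all genes tested (18.1% above and 23.4% below) and 45.6% of protein-coding genes (19.4% and 26.2%).

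**Figure D2:**
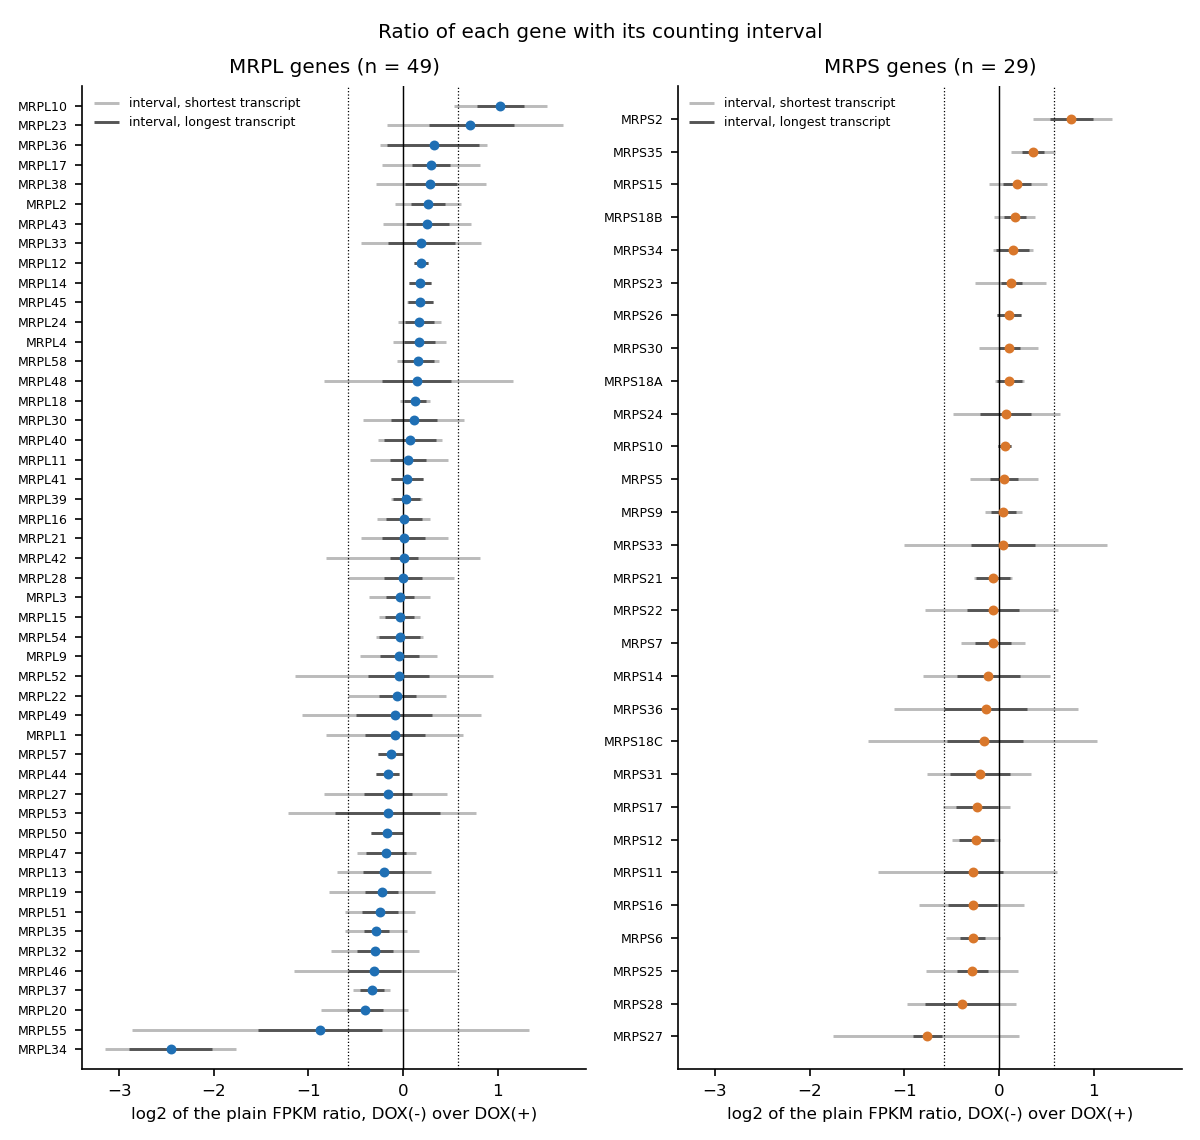
Log2 of the plain FPKM ratio, DOX(-) over DOX(+), for the 49 MRPL genes (left) and the 29 MRPS genes (right), ordered by ratio, with 1 point per gene. Pale lines are 95% counting intervals from the shortest and dark lines those from the longest annotated transcript, and dotted lines mark a plain ratio of 1.5. Points run on both sides of 0 in both panels, and MRPL34 is the gene farthest from 0.

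MRPL34, a small conserved protein of the large subunit, differed most and was the only one of the 78 past 2-fold on the FPKM + 1 scale. The gene (chromosome 19, 17292609 to 17306843, plus strand, GRCh38) was at 3.24 and 17.7 FPKM, a log2 difference of -2.14. Its level was thus far lower in the library labelled DOX(-). Among the 78 genes it was in place 70 of the order of levels in the first library and in place 28 in the second. On the shortest transcript these values stand for about 21.7 and 132 fragments, and the plain ratio of 0.183 had a counting interval of 0.113 to 0.294. The longest transcript gave 0.134 to 0.246. ABHD8, a neighbour on the opposite strand that shares 223 exon bases with MRPL34, was at 0.0750 and 0.0504 FPKM. Past 2-fold, 1.2% of all genes tested and 0.797% of protein-coding genes were lower, and 0.833% and 0.582% were higher.

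MRPL10 anchors the stalk of MRPL12 copies on the large subunit. It was at 11.4 and 5.57 FPKM, a log2 difference of 0.91, and the plain ratio of 2.04 had an interval of 1.45 to 2.87 (chromosome 17, 47823272 to 47831534, minus strand). MRPL12 itself, its direct partner, was only slightly higher in the library labelled DOX(-), with a plain ratio of 1.14 and an interval of 1.08 to 1.20. MRPL10 shares exon bases with no other listed gene. It stood in place 41 of the order in the library labelled DOX(-) and in place 64 in the library labelled DOX(+).

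MRPS2, a conserved protein of the small subunit, was at 15.4 and 9.09 FPKM (chromosome 9, 135499984 to 135504673, plus strand). Its log2 difference was 0.70, and its plain ratio of 1.70 had an interval of 1.29 to 2.28. MRPL23, which lines the rim of the exit tunnel of the large subunit, was at 6.96 and 4.26 FPKM (chromosome 11, 1947278 to 1984522, plus strand), a log2 difference of 0.60. Its interval of 0.890 to 3.23 on the shortest transcript included 1, and that on the longest, 1.21 to 2.25, did not. MRPL23 therefore passed the rule of size with a counting error that depends on the transcript assumed. The antisense gene MRPL23-AS1, which shares exon bases with MRPL23, was listed at 0 in both libraries.

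MRPS27, a subunit of the small ribosomal subunit without a bacterial counterpart and with pentatricopeptide repeats, was at 6.99 and 11.8 FPKM (chromosome 5, 72219409 to 72320646, minus strand). Its log2 difference was -0.68, and its interval was 0.297 to 1.16 on the shortest and 0.531 to 0.660 on the longest transcript. PTCD2, whose exons overlap those of MRPS27 on the opposite strand, was at 1.16 and 1.41 FPKM. Just within the rule was MRPL55, the counterpart of a bacterial large subunit protein and the lowest gene of the set, at 1.29 and 2.38 FPKM. Its log2 difference was -0.56 and its interval on the shortest transcript, 0.137 to 2.51, was wide, with about 3.62 fragments behind its lower value. The longest transcript gave an interval of 0.346 to 0.858, with about 30.5 fragments behind the lower value. For MRPL55 too the counting error thus depends on the transcript assumed.

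Below these genes the differences were small. On the lower side followed MRPL20 (13.2 and 17.5 FPKM, log2 difference -0.38), MRPS28 (6.75 and 8.82 FPKM, -0.34), MRPL37 (33.2 and 41.8 FPKM, -0.32), MRPL32 (8.61 and 10.6 FPKM, -0.27) and MRPL35 (12.7 and 15.4 FPKM, -0.26). Of these 5, only MRPL37, a subunit specific to mitochondria, had an interval on the shortest transcript that excluded 1, at 0.693 to 0.910. On the longest transcript the intervals of all 5 excluded 1. On the higher side followed MRPS35 (42.5 and 33.1 FPKM, 0.35), MRPL36 (5.95 and 4.74 FPKM, 0.27), MRPL17 (13.8 and 11.3 FPKM, 0.27), MRPL38 (7.41 and 6.07 FPKM, 0.25) and MRPL2 (20.8 and 17.3 FPKM, 0.25). MRPS35 alone among these had an interval on the shortest transcript that excluded 1, at 1.09 to 1.51. On the longest transcript those of MRPS35, MRPL17, MRPL38 and MRPL2 excluded 1, and that of MRPL36 did not.

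For 8 genes with 1 annotated transcript the FPKM gave whole fragments, and no transcript length had to be assumed. MRPL12 had 2945 and 2886 fragments, and MRPL14 had 1182 and 1164, a ratio of 1.13 with an interval of 1.05 to 1.23. MRPL44, which has a ribonuclease III fold, had 1000 and 1249 fragments, a ratio of 0.895 with an interval of 0.822 to 0.973. MRPL50 had 544 and 684 fragments, a ratio of 0.889 with an interval of 0.792 to 0.996. So even among the best measured genes the ratios lay on both sides of 1, MRPL12 and MRPL14 above it and MRPL44 and MRPL50 below. The intervals of MRPS10 (0.996 to 1.09), MRPS26 (0.988 to 1.18), MRPL41 (0.916 to 1.15) and MRPL57 (0.835 to 1.00) included 1. All 8 ratios lay between 0.889 and 1.14.

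The large and the small subunit genes were compared as the MRPL and MRPS symbols name them. The 49 MRPL genes had median levels of 11.4 and 11.3 FPKM, and the 29 MRPS genes had 11.99 and 11.8 FPKM. The levels of the subunits were thus nearly equal in both libraries. The median log2 difference was -0.00 for MRPL genes, with 24 above 0 and 25 below, and -0.05 for MRPS genes, with 14 above and 15 below. Past 1.5-fold were 2 MRPL genes higher and 1 lower, and 1 MRPS gene higher and 1 lower. This is 6.12% of MRPL and 6.90% of MRPS genes, near the 7.17% of all genes tested and the 5.34% of protein-coding genes. The subunit medians differed by 0.05 on the log2 scale. That difference had the other sign, -0.04, when only genes of at least 5 FPKM were kept, and -0.10 when only genes without exon overlap were kept.

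Symbols and structures do not match fully. MRPS18A and MRPS30 (18.3 and 16.9 FPKM) sit in the large subunit, and MRPS36 (3.81 and 4.18 FPKM) is now known as a component of the 2-oxoglutarate dehydrogenase complex. MRPL58, a peptidyl-tRNA hydrolase that also rescues stalled ribosomes, was at 40.4 and 36.3 FPKM. With the subunits placed by structure, and 5 subunits under other names added, the medians were 0.00 for 52 large and -0.04 for 30 small subunit genes. The 46 genes with a bacterial counterpart had a median of -0.03, with 3 higher and 1 lower past 1.5-fold, and the 31 mitochondria-specific genes had a median of 0.03, with 0 higher and 1 lower. These counts are 8.70% and 3.23% of the classes, beside 7.17% of all genes tested and 5.34% of protein-coding genes. They rest on few genes and are no result about the classes. Within the small subunit as structures place it, 6 of 16 conserved genes and 6 of 10 mitochondria-specific genes with MRPS symbols were above 0, and their medians were -0.08 and 0.07. Within the large subunit, with MRPS18A and MRPS30 included, 15 of 30 conserved and 11 of 21 mitochondria-specific genes were above 0, and both medians were 0.00. The shares above 0 were 37.5% and 60% in the small subunit and 50% and 52.4% in the large. Beside them stand 46.6% of all genes tested and 45.9% of protein-coding genes. These counts too rest on few genes and are no result about the classes. With the classes taken by symbol instead, the mitochondria-specific medians were 0.10 for 12 MRPS genes and -0.04 for 19 MRPL genes.

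The 5 ribosome subunits that carry other names differed little between the libraries. DAP3, a GTP-binding small subunit protein also known from studies of cell death, was at 13.2 and 11.0 FPKM. PTCD3, a pentatricopeptide repeat protein of the small subunit, was at 9.64 and 9.82 FPKM, AURKAIP1 at 15.1 and 13.9, and CHCHD1 at 7.46 and 8.16. GADD45GIP1, a large subunit protein also known as CRIF1, was the highest of the 5, at 109.3 and 93.6 FPKM, and its ratio of 1.17 had an interval of 1.11 to 1.23. None of the 5 passed 1.5-fold, and their median log2 difference was 0.12.

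The factors that build and serve the mitochondrial ribosome were read in the same way. Of 27 assembly factors 26 were tested, and 1 was higher, 0 were lower, with a median of 0.01. The higher gene is 3.85% of the list, where 3.11% of all genes tested were higher and 4.06% lower. The higher gene was MTG2, a GTPase of large subunit assembly, at 3.65 and 1.69 FPKM, a log2 difference of 0.79 with an interval of 1.16 to 3.97 for the plain ratio. METTL15, a methyltransferase of the small subunit RNA, was at 1.09 and 2.00 FPKM (-0.52), and MALSU1, a large subunit assembly factor, was at 6.82 and 4.49 FPKM (0.51). Of 17 translation factors none passed 1.5-fold, and 4 were above 0 and 13 below, with a median of -0.10. The 4 are 23.5% of the list, beside 46.6% of all genes tested and 45.9% of protein-coding genes above 0. Past 1.5-fold in either direction were 7.17% of all genes tested. Whether this short list departs from all genes was not tested. TSFM, the exchange factor of the elongation factor TUFM, was at 4.17 and 6.18 FPKM (-0.47), and TUFM was at 191.3 and 163.1 FPKM (0.23). C12orf65, a release factor homolog that acts on stalled ribosomes, was at 1.54 and 2.32 FPKM (-0.39).

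The RNA partners and the products of the mitochondrial ribosome come from the mitochondrial genome. Its 13 protein-coding transcripts all lay below 0, with a median of -0.31 and 3 of them past 1.5-fold lower (MT-ND5, MT-ND6 and MT-ATP8). The 3 are 23.1% of the list, beside 4.06% of all genes tested that were lower by that rule. Among all genes tested 46.6% were above 0. These transcripts come from the same genome and the same pair of libraries and are not independent replicates. MT-ND5, a proton-pumping subunit of complex I, was at 1099 and 1878 FPKM (-0.77), and MT-ND6 of the same complex at 273.6 and 435.7 FPKM (-0.67). The 2 mitochondrial ribosomal RNAs were also below 0, MT-RNR1 of the small subunit at 417.1 and 705.4 FPKM (-0.76) and MT-RNR2 of the large subunit at 1941 and 2529 FPKM (-0.38). The protein subunits of the same ribosome thus had a median of -0.02 and its RNAs were both lower in the library labelled DOX(-). Whether polyadenylated RNA was selected is not given in the sources used here, and the levels of the ribosomal RNAs depend on it. When FPKM were rescaled to the total without the mitochondrial genome, the median of the 78 genes was -0.08. This rescaling multiplied every DOX(+) value by 1.05, up to 0.07 on the log2 scale. The shift is therefore not particular to the 78 genes.

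**Figure D3:**
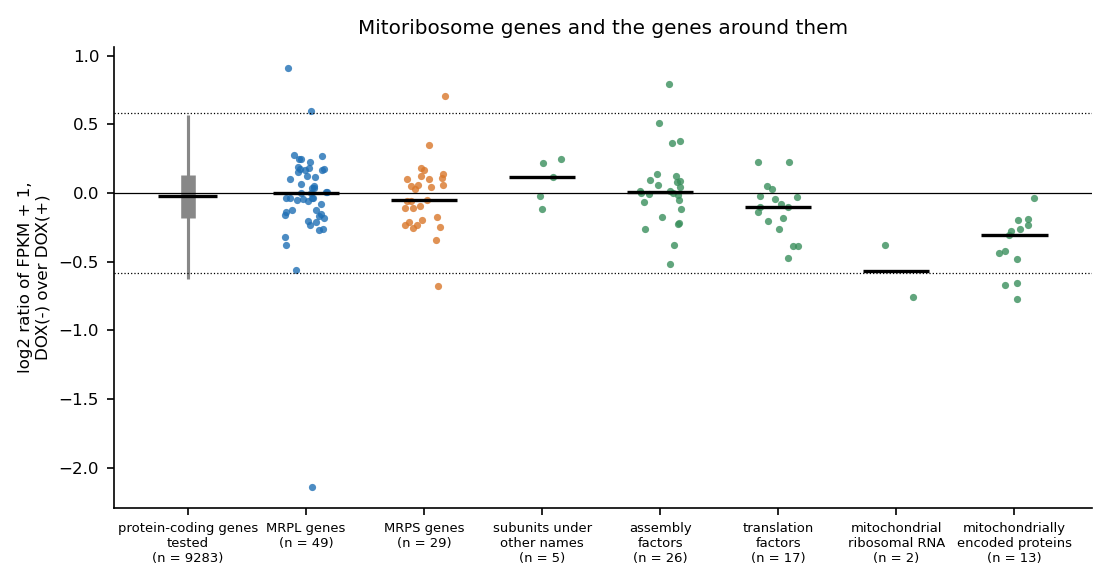
Log2 ratio of FPKM + 1, DOX(-) over DOX(+) (y axis), by gene list (x axis), with 1 point per gene and a black bar at the median of each list. The grey column stands for the 9283 protein-coding genes tested, with a thick line over their middle 50% and a thin line over their central 95%, and dotted lines mark 1.5-fold. The MRPL and MRPS genes centre on -0.00 and -0.05, while all 13 mitochondrially encoded proteins lie below 0.

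Of 10 known regulators of nuclear genes for mitochondrial proteins, 9 were tested. MYC, a transcription factor that drives growth genes, was at 29.5 and 2.06 FPKM, a log2 difference of 3.32. It was the only one past 1.5-fold on the FPKM + 1 scale. This is 11.1% of the 9 genes, beside 7.17% of all genes tested. GABPA, the DNA-binding subunit of nuclear respiratory factor GABP, was at 6.66 and 10.3 FPKM (-0.55). Its plain ratio of 0.650, with an interval of 0.492 to 0.853, was past 1.5-fold. TFAM, which packages and transcribes mitochondrial DNA, was at 10.6 and 14.8 FPKM (-0.44, plain ratio 0.720, interval 0.567 to 0.916). NRF1 was at 3.06 and 3.64 FPKM and YY1 at 18.1 and 18.1 FPKM. The median of the 9 genes was -0.10.

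Ratios varied with level among the 78 genes. The 26 genes of highest mean level (19.5 to 162 FPKM) had a median log2 difference of 0.08, with 18 above 0 and 8 below. The 26 in the middle (8.47 to 19.3 FPKM) had -0.05, with 11 above and 15 below, and the 26 lowest (1.84 to 8.32 FPKM) had -0.07, with 9 above and 17 below. Protein-coding genes of the same 3 level ranges had medians of 0.01, -0.01 and -0.04, and 53.2%, 47.5% and 42.7% of them were above 0, so the order was the same in them over a smaller span. Across the 78 genes the ratio had a Spearman correlation of 0.29 with log2 mean level, -0.26 with the log2 length of the longest transcript and 0.39 with GC content. The Pearson correlations were weaker, at 0.17, -0.07 and 0.19, and without MRPL34 they were 0.22, -0.24 and 0.35. Across the protein-coding genes of the same level range the Spearman values were 0.08, -0.14 and 0.34 and the Pearson values 0.07, -0.11 and 0.24. All these points share the same pair of libraries, and the part of GC content, length or RNA quality in the ratios was not tested.

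The mitochondrial ribosomal protein genes are scattered over 21 chromosomes, with chromosomes 1, 2 and 17 holding 8 each. They are short: the median of the longest annotated transcripts was 1722 bases, against 3600 for protein-coding genes tested. Their median GC content was 47.7%, against 48.1%. A protein-coding gene started head to head with them, on the opposite strand within 1000 bases, for 29 of the 78 genes (37.2%), against 19.6% of protein-coding genes tested and 12.9% of all 19817 protein-coding genes. MRPL46 and MRPS11, a large and a small subunit gene, form such a pair with starts 34 bases apart. MRPL46 was at 1.97 and 2.43 FPKM and MRPS11 at 2.49 and 3.01 FPKM, so both lay low and their log2 differences were -0.21 and -0.20. Their intervals on the shortest transcripts, 0.450 to 1.47 and 0.413 to 1.53, included 1. On the longest transcripts they were 0.666 to 0.984 and 0.669 to 1.03. MRPL46 shares 724 exon bases on the same strand with AC013489.1, listed at 0.807 and 0.0903 FPKM, so its ratio is uncertain.

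Among 20 pairs of a mitochondrial ribosomal protein gene and a tested partner outside the set, 10 had ratios of the same sign. The same share among pairs of other genes was not computed, so this count is a description only. MRPL18 and TCP1, a subunit of the cytosolic chaperonin, start 63 bases apart and were at similar levels, 64.8 and 59.4 FPKM against 57.2 and 59.2 FPKM. MRPL36 and NDUFS6, a subunit of respiratory complex I, start 34 bases apart and were at very different levels, 5.95 and 4.74 against 78.6 and 74.5 FPKM. The only one of these 20 partners past 1.5-fold, beside 7.17% of all genes tested, was SKA3, a kinetochore gene. SKA3 was at 12.4 and 20.3 FPKM, a log2 difference of -0.67, while MRPL57 beside it was at 23.4 and 25.6 FPKM, a difference of -0.12. A shared start region was thus seen with equal and with unequal levels and ratios.

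Overlap with other genes limits some of these values, because the strandedness of the libraries is not given in the sources used here and reads of opposite genes may not be separable. In the annotation 16 of the 78 genes share exon bases with another gene on the same strand, 29 do so with a gene on the opposite strand, and 37 with neither. MRPL9, MRPL20, MRPL38 and MRPS16 share bases on both strands and are in both of the first counts. MRPL33 and BABAM2, a BRCA1 complex subunit gene that shares 324 exon bases with it on the same strand, were listed at 11.3 and 9.88 against 11.7 and 9.88 FPKM. MRPS17 shares bases with NIPSNAP2 (9.86 and 11.6 against 8.78 and 8.49 FPKM), and MRPS24 with the readthrough gene URGCP-MRPS24 (8.10 and 7.72 against 0.531 and 0.951 FPKM). How fragments were divided within these groups was not given, so their values are uncertain. The 37 genes without overlap had a median log2 difference of 0.04, with 23 above 0 and 14 below, and MRPL10 was the only one past 1.5-fold. The 23 are 62.2%, beside 46.6% of all genes tested, and MRPL10 is 2.70%, beside 7.17%. The same shares among other genes without overlap were not computed.

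Processed and other pseudogenes named after these genes filled 75 rows, of which 11 were above 0 and 4 reached 1 FPKM. The highest were MRPL3P1, at 6.01 and 5.70 FPKM, and MRPS31P4, at 4.48 and 4.72 FPKM. All 75 rows summed to 15.3 and 13.7 FPKM, beside 1582 and 1540 FPKM for the genes themselves. MRPS31 itself was at 6.23 and 7.17 FPKM, near its pseudogene copy, and fragments shared between such copies are uncertain.

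The start regions of the genes were read from RefSeq promoter windows of 300 bases (GRCh38.p14), from 250 bases before to 50 bases after the start, which were found for 69 of the 78 genes. Position 1 is the first transcribed base. Searched on both strands were the NRF1 motif GCGCATGC, the ETS motif CCGGAAG that GABPA recognises, and the YY1 motif AAGATGGC. These factors are long known to bind promoters of nuclear genes for mitochondrial proteins. A match is a description of letters in the window and not a bound site.

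The ETS letters were in 29 of 69 windows (42.0%), against 22.1% of the 7457 windows of tested protein-coding genes and 10.3% of all 35116 windows. The YY1 letters were in 20 windows (28.99%), against 6.64% and 2.89%. The NRF1 letters were in 6 windows (8.70%), against 6.17% and 3.05%. At least 1 of the 3 motifs was in 42 windows (60.9%), against 31.2% and 14.9%. ETS and YY1 letters occurred together in 8 windows, and matches of different motifs overlapped in none of the 69. Large and small subunit genes were alike in this, with ETS letters in 40.5% and 44.4% and YY1 letters in 28.6% and 29.6% of their windows.

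**Figure D4:**
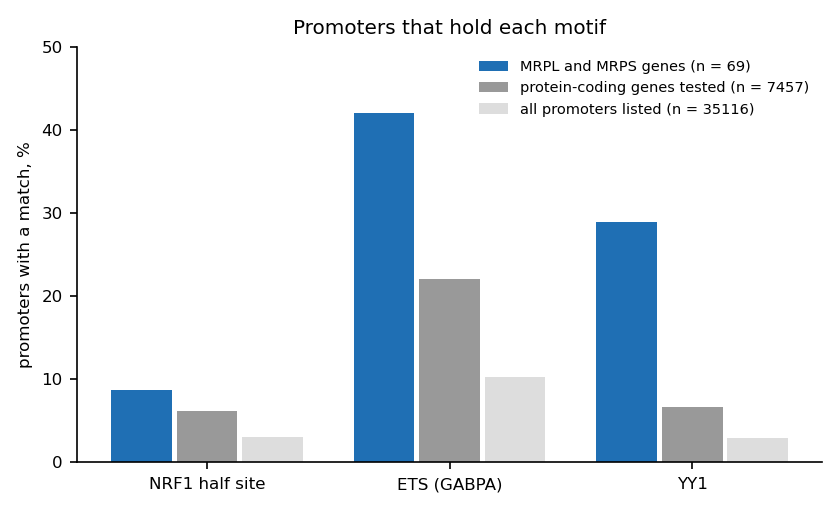
Share of promoter windows with at least 1 match on either strand (y axis, percent) for the NRF1, ETS and YY1 motifs (x axis), in 69 mitochondrial ribosomal protein genes (blue), 7457 tested protein-coding genes (grey) and all 35116 windows (pale grey). The blue bars for ETS (42.0%) and YY1 (28.99%) stand well above the grey bars (22.1% and 6.64%). The NRF1 bars are all low, at 8.70%, 6.17% and 3.05%.

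Of the 20 genes with YY1 letters, 15 had them on their own strand after the start, with the first base between positions 7 and 36, which is 21.7% of the 69 windows against 4.02% for tested protein-coding genes. In 12 of these 15 genes (80%) the ATG inside the YY1 letters is an annotated start codon, and so it is in 216 of 300 (72%) of the tested protein-coding genes with such a match. In those genes the letters lie where the coding sequence begins. The 6 windows below, each 30 bases and 5′ to 3′ on the strand of the gene, show these letters after the start in MRPS27, the only such case among the 3 genes past 1.5-fold with a window, and in the 5 such genes of highest mean level. Capitals mark the YY1 letters.
MRPS27 (chr5:72320206-72320235, minus strand): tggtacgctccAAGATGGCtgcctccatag
MRPS10 (chr6:42217834-42217863, minus strand): tcgggaccggcAAGATGGCggcgcggacag
MRPS18A (chr6:43687764-43687793, minus strand): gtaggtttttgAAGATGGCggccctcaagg
MRPS18B (chr6:30617852-30617881, plus strand): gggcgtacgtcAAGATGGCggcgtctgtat
MRPL45 (chr17:38297170-38297199, plus strand): tttgcgggaacAAGATGGCagcccccatac
MRPL51 (chr12:6493223-6493252, minus strand): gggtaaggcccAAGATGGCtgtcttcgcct

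The ETS letters lay upstream in most genes, with 27 of their 39 matches within 100 bases before the start. Most of each window, 250 of 300 bases, lies before the start, and the same share in other genes was not computed. The position is therefore a description of these windows only. The next windows show them, again as 30 bases on the strand of the gene, in 3 of the 6 most abundant genes. Capitals mark the ETS letters, which in MRPS26 are on the other strand and so read as their reverse complement.
MRPS10 (chr6:42217865-42217894, minus strand): ccgctgtaaccCCGGAAGcaatcctgagag
MRPS18A (chr6:43687804-43687833, minus strand): ggcgctacgttCCGGAAGcggaaatggacg
MRPS26 (chr20:3046004-3046033, plus strand): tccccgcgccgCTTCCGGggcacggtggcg

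MRPS10 and MRPS18A thus carry ETS letters just before and YY1 letters just after their start. Both were nearly equal in the libraries, MRPS10 with a log2 difference of 0.06 and MRPS18A with 0.11. The most abundant gene, MRPL12, held none of the 3 motifs in its window, nor did MRPL14, MRPL18 or MRPL34, so high level and motif letters did not go together throughout. Median log2 differences were -0.00 for the 29 genes with ETS letters and -0.02 for the 40 without. They were -0.05 for the 20 genes with YY1 letters and 0.01 for the 49 without, and -0.05 for the 6 with NRF1 letters and 0.00 for the 63 without. The 6 medians ran from -0.05 to 0.01.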

How the data were processed

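RNA was extracted with Trizol and made into libraries with an NEB Ultra kit, per the labels' protocols. The authors deposited 1 FPKM value per gene and library, per the file headers. CASAVA 1.8, HISAT2 2.1.0, StringTie 1.3.4b, edgeR and the builds GRCh38 and hg38 are named, without roles, per the submitters' processing notes. The annotation release was not given in the sources used here. Of 58302 identifiers, 58039 were found in GENCODE release 29, and 77 of the 78 genes had the same locus there (MRPL28 did not).

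From these values log2((DOX(-) + 1)/(DOX(+) + 1)) was computed, with a pseudocount of 1 FPKM, for genes that reached 1 FPKM in at least 1 library. Depth was recovered from FPKM steps in genes with 1 transcript, where 99.98% and 99.97% of values (5541 and 5934 genes, up to 100 fragments) were whole within 0.02 fragment. A floor of 3 fragments equals 0.181 and 0.162 FPKM for 1 kb. With 1 library per condition no test was made, and rules of size were used, 1.5-fold for counts over lists and 2-fold for single genes. Named genes were those past 1.5-fold, those with the largest differences in each direction, the 6 highest and 6 lowest, renamed subunits and overlapping genes, and in other lists those past 1.5-fold and the largest differences. TUFM, TFAM, NRF1, YY1, ELANE, CTSG, MPO, MRPS31 with its pseudogenes, head-to-head partners and genes with printed windows were chosen after their values were seen. The genes and lists were chosen with earlier results of these data known. Where a gene had several promoter windows (11 of the 69), the first listed was used. Alternatives covered pseudocount, filter, scaling, overlap, fold, mean and subunit assignment. Python 3.11.15, pandas 2.3.3, scipy 1.17.1, numpy 2.4.6 and matplotlib 3.10.9 were used, and the scripts were tested on simulated data.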

Additional observations from a re-analysis of the deposited data

How the results depend on the processing

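Of the 3 scalings between libraries the largest shift was 0.07 on the log2 scale, from rescaling to FPKM outside the mitochondrial genome. Under it the median log2 difference was -0.081 for the 78 genes and -0.065 for the MRPL genes. Over genes without exon overlap the median of the MRPS genes was 0.11 (12 genes), and the counts past 1.5-fold were 1 higher and 0 lower. They were 1 and 1 with a pseudocount of 5 FPKM and 0 and 1 at 2-fold, and 1 gene was lower when the counting interval also had to exclude 1. MRPS2 (0.54) and MRPS27 (-0.49) were within 1.5-fold with a pseudocount of 5 FPKM, as was MRPL23 (0.37), which was also within it after the rescaling (0.54). MRPL55 passed it with a pseudocount of 0.1 FPKM (-0.83) and after the rescaling (-0.61). The sign of 13 genes near 0 turned under some scaling or pseudocount. The median of the 78 genes was 0.02 at a filter of 5 FPKM. Leaving out MRPL34, chosen after seeing the data, is the only setting added later. No paired analysis was possible because each condition has 1 library. The depth leaves low genes such as MRPL55 with few fragments when the shortest transcript is assumed.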
